A study of Homo sapiens with 2 samples.

Results

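The autophagy and endosome sorting genes of A549, a cell line established from a human lung adenocarcinoma, were compared between stretched and static culture. They were chosen by symbol, with earlier results of these data known. The families ATG, VPS, SNX, WIPI, CHMP, ULK, MAP1LC3 and GABARAP were taken by the start of the symbol and a further set by name (SQSTM1, NBR1, OPTN, BECN1, RB1CC1, TFEB, TFE3, LAMP1, LAMP2 and CD68). This gave 107 of the 14884 genes that have a named probe set on the arrays. Of these, 102 are protein-coding in RefSeq and 5 are antisense RNAs or pseudogenes. A further 16 genes of the same families that RefSeq lists as protein-coding, among them BECN1, NBR1, ATG4A to ATG4D, WIPI1, WIPI2, CHMP3 and VPS16, are unnamed here, so no value is given for them.

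The stretched group was A549 cells after 4 h in stretch culture and the static group was the same line after 4 h in static culture. The title of the stretched sample writes the line as A594, while its source name gives A549. The series title asks about invasion and tumour necrosis factor alpha under stretch. No amplitude, frequency or device was given in the sources used here. Each group was 1 biotin-labelled RNA on 1 array. No value below has a replicate, no test across samples exists, and every difference describes these 2 arrays.

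Autophagy is the process by which a cell encloses cytoplasm in a double membrane, the autophagosome, and delivers it to the lysosome. The ULK1 kinase complex starts it, a lipid kinase complex and lipid transfer proteins build the membrane, and a conjugation system attaches the small ubiquitin-like ATG8 proteins (the LC3 and GABARAP families), which cargo receptors bind. Endosomes sort membrane proteins along related routes. The ESCRT complexes pinch vesicles into the endosome and close membrane wounds and autophagosomes, retromer and retriever recycle receptors and integrins, tethering complexes bring membranes together before fusion, and sorting nexins bind endosomal lipids. Lung epithelial cells are stretched with every breath, and autophagy is known to respond to mechanical load in several cell types.

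Values are signals on the log2 scale of RMA, the authors' background-corrected and summarised probe set values, so that a difference of 1 is 2-fold and one of 0.585 is 1.5-fold. Differences are stretch minus static. Signals of the 53617 probe sets ran from 0.60 to 12.6 on the stretched array and from 0.61 to 12.7 on the static array. A signal of 4.26, the 95th percentile of 18 genes of unrelated tissues, was used as an upper bound for background. Signals under it are compressed, and differences that start from it are not firm in size. These 18 genes, which should be silent in A549 cells, differed between the arrays with an SD of 0.50. Of them, 5 differed by at least 1.5-fold, 1 higher and 4 lower under stretch, and 2 differed by 2-fold. Of the epithelial markers, KRT18, KRT7, KRT8 and EPCAM lay above the bound on both arrays and KRT19 below it on both. The macrophage, endothelial and fibroblast markers measured (CD163, MARCO, PECAM1, VWF and DCN) lay below it on both arrays, and the leukocyte marker CD14 lay above it on both, at 5.53 on the stretched and 5.13 on the static array. In RNA from whole cultures, fewer cells of a type and less RNA per cell cannot be told apart.

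Genes with a higher signal under stretch outnumbered those with a lower one. Of the 107, 40 (37.4%) were at least 1.5-fold higher, against 20.7% of all named genes, and 6 (5.61%) were at least 1.5-fold lower, against 8.02% of all named genes. At 2-fold, 16 were higher and 3 lower, which is 15.0% and 2.80%, against 9.07% and 1.93% of all named genes. The median difference was 0.41, against 0.06 over all named genes. This lean depended on scaling. After quantile normalization 17 (15.9%) were at least 1.5-fold higher, against 12.8% of all named genes, and 13 (12.1%) lower, against 10.9%. After removal of the trend with level 18 (16.8%) were higher, against 14.3%, and 12 (11.2%) lower, against 9.43%. Of the members past 1.5-fold, 56.7% and 60.0% were higher under these scalings, against 53.8% and 60.2% for all named genes. With both arrays centred on 9 reference genes, whose own differences ran from -0.22 to 1.72, the same 0.53 is taken from every gene. The median then becomes -0.12, against -0.47 over all named genes, with 9 (8.41%) higher, against 6.84%, and 28 (26.2%) lower, against 39.2%. A difference between -0.10 and 0.53 therefore has the opposite sign under at least one scaling, and such genes are given as values without a direction. None of the 40 genes higher by 1.5-fold went below 0 under any of the 4 scalings, but this is no support for their direction. Reference centring takes 0.53, less than the 0.585 of the 1.5-fold limit, and median centring adds 0.10, so neither could bring a gene below 0. Of the 40, 17 were still past 1.5-fold after quantile normalization, 18 without the level trend and 9 after reference centring.

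**Figure D1:**
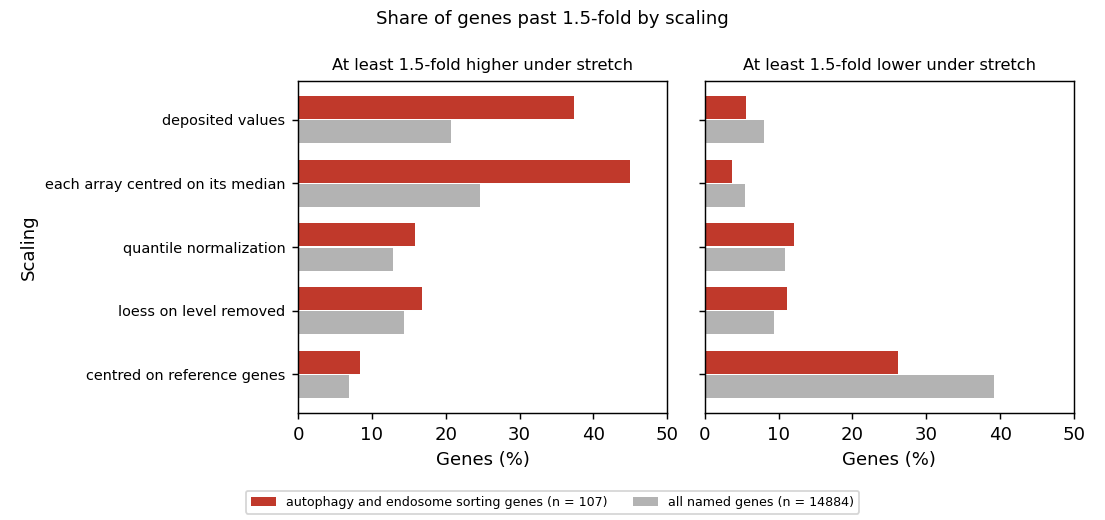
Share of genes (x axis, percent) at least 1.5-fold higher (left) and at least 1.5-fold lower (right) on the stretched than on the static array, for the 107 autophagy and endosome sorting genes and for the 14884 named genes, under the deposited values and 4 other scalings. The share higher among the 107 genes is 37.4% in the deposited values, against 20.7% of all named genes, and 15.9% against 12.8% after quantile normalization. The share lower after quantile normalization is 12.1% against 10.9%.

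Part of the lean went with signal level. The 107 genes were signalled more strongly than most named genes, with 66 of them above the background bound on both arrays, against 5277 of 14884. Among the 40 genes with a mean signal from the bound to 6, 60.0% were at least 1.5-fold higher, against 39.7% of all named genes in that range. Among the 39 with a mean signal above 6 the share was 28.2%, against 33.5% of all named genes there. Among the 28 at or below the bound it was 17.9%, against 9.69%. Their share thus lay above that of the named genes in the lower and middle range and below it in the upper range. In the lower range it rests on 5 of 28 genes, and the signals there were not alike. The median stretched signal was 3.66 for the members and 2.45 for all named genes, and the median static signal 3.42 and 2.56.

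**Figure D2:**
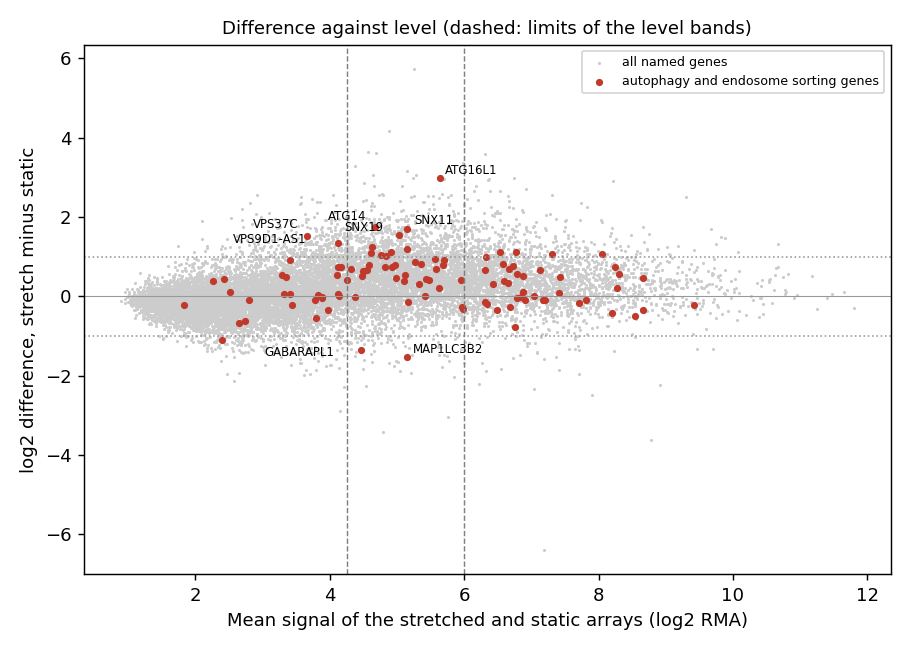
Log2 difference, stretch minus static (y axis), against the mean log2 signal of both arrays (x axis) for all named genes (grey) and the 107 autophagy and endosome sorting genes (red), with dotted lines at 2-fold and dashed lines at the limits of the level bands, 4.26 and 6. ATG16L1 stands highest among the 107 at 2.99, and MAP1LC3B2 lowest at -1.53.

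Across the scalings, 13 of the 107 genes kept a difference of 1.5-fold or more in the same direction in the deposited values and in all 4 alternatives. The share of all named genes that did so was not computed, so the 13 are a list and no excess is read from them. The 9 higher ones were ATG16L1, ATG14, SQSTM1, VPS37C, CHMP6, VPS33B, SNX11, SNX19 and the antisense RNA VPS9D1-AS1. The 4 lower ones were MAP1LC3B2, GABARAPL1, VPS37A and SNX32. The hurdle was not equal in both directions, because reference centring takes 0.53 from every gene and could only deepen a lower difference. Quantile normalization and removal of the level trend also deepened those of MAP1LC3B2, GABARAPL1 and VPS37A. Of these 13, 5 (SQSTM1, VPS33B, SNX11, MAP1LC3B2 and VPS37A) lay above the background bound on both arrays. The static signals of ATG16L1, ATG14, VPS37C, CHMP6, SNX19 and VPS9D1-AS1, the stretched signal of GABARAPL1 and both signals of SNX32 lay within the background range. Against the bound, VPS37C was at least 1.12-fold and VPS9D1-AS1 at least 1.44-fold higher in the deposited values, both short of 1.5-fold.

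Promoter sequence is shown for 6 genes: the gene with the largest difference and the GABARAP family member that was 2-fold lower, 2 genes that carry the core of the CLEAR element, to which TFEB and TFE3 bind, and 2 that carry the AP-1 motif. Each line gives the 250 bases before the annotated start, 5′ to 3′ on the gene's strand, from RefSeq (GRCh38.p14), and capitals mark motif letters found on either strand. ATG16L1 lies at chr2:233251423-233251672 (plus strand), ATG14 at chr14:55411831-55412080 (minus), LAMP1 at chr13:113296989-113297238 (plus), TFE3 at chrX:49043358-49043607 (minus), CD68 at chr17:7579388-7579637 (plus) and GABARAPL1 at chr12:10212627-10212876 (plus).
ATG16L1: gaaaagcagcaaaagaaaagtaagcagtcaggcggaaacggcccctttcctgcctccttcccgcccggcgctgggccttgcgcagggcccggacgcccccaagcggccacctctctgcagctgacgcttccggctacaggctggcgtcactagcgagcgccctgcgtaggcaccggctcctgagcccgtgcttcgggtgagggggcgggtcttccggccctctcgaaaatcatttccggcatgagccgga
ATG14: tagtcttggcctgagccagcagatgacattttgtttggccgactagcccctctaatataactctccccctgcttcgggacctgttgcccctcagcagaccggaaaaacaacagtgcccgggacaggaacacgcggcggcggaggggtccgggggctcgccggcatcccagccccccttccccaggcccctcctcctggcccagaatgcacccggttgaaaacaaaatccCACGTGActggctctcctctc
LAMP1: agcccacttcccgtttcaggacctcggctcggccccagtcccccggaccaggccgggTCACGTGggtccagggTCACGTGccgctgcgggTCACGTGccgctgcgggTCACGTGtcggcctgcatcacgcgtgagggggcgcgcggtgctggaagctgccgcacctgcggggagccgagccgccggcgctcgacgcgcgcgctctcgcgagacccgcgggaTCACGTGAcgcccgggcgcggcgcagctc
TFE3: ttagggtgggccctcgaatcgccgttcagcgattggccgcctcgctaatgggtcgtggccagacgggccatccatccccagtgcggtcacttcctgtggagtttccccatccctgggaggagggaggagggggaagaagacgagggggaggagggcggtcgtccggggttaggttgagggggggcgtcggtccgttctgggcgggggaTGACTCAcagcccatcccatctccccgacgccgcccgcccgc
CD68: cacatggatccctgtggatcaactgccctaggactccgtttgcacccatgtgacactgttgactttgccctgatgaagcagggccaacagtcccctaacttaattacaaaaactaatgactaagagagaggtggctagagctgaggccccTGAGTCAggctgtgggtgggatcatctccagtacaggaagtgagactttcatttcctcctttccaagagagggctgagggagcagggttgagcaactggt
GABARAPL1: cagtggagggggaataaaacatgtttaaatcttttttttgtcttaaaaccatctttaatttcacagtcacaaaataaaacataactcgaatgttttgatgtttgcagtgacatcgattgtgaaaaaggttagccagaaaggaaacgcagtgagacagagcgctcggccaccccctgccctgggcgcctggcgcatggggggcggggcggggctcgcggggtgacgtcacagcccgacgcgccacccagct

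The motifs searched, on both strands, were CACGTG (the E-box), TCACGTG (the CLEAR core, which contains an E-box), TGACTCA (AP-1) and GGAATG (TEAD). RefSeq promoters were matched for 80 of the 107 genes, some with several starts, giving 95 promoters. Of these, 8 (8.42%) held the CLEAR core, against 3.31% of 35116 promoters, and 11 (11.6%) an E-box, against 6.34%. AP-1 was found in 2 (2.11%), against 4.20%, and TEAD in 9 (9.47%), against 11.9%. The genes with a CLEAR core were ATG14, CHMP4A, VPS37B, VPS11, VPS26C, LAMP1 and ATG3, with differences from 1.74 (ATG14) to -0.16 (ATG3), so that genes on both sides of the 1.5-fold limit carried it. LAMP1 held 5 E-boxes in its 250 bases and differed by 0.38, whereas ATG14 held 1, at 21 bases before its start, and differed by 1.74. The AP-1 letters stood in the promoters of TFE3 and CD68. None of the 4 motifs was found in these windows of ATG16L1 and GABARAPL1. A match is a description of the letters and not a binding site.

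**Figure D3:**
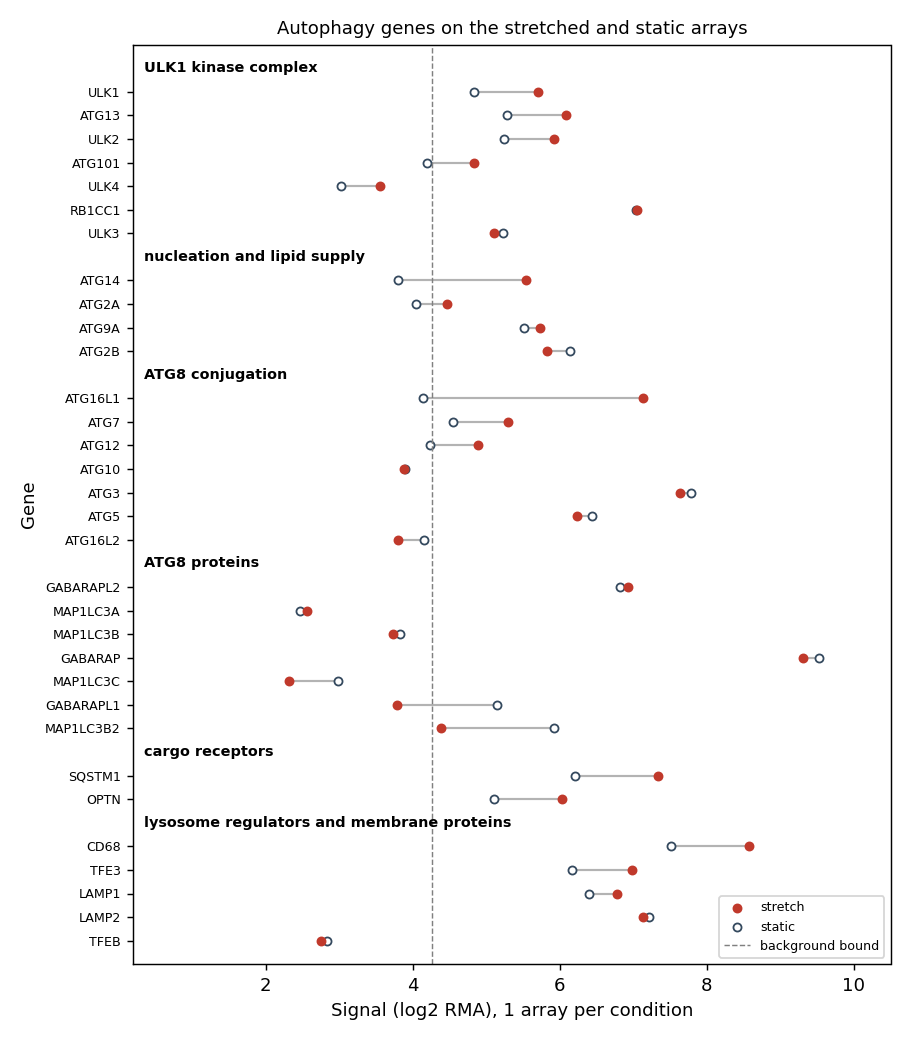
Log2 RMA signal (x axis) of each autophagy gene (rows, grouped by role) on the stretched array (filled) and the static array (open), joined by a line, with 1 array per condition. The dashed line is the background bound of 4.26, and ATG16L1 has the longest line, with 7.13 on the stretched and 4.14 on the static array.

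Of the 7 genes grouped with the ULK1 kinase complex, 4 were at least 1.5-fold higher under stretch and 0 lower. Counts by role, here and below, stand beside 20.7% of all named genes higher and 8.02% lower in the deposited values. ULK1, the kinase that starts autophagy, had 5.70 on the stretched and 4.83 on the static array, a difference of 0.87. ATG13, the subunit that binds ULK1 to the rest of the complex, had 6.08 under stretch and 5.28 under static culture (0.80). ULK2, the close relative of ULK1, differed by 0.68 and ATG101, which stabilises ATG13, by 0.63, the last from a static signal under the background bound. The scaffold RB1CC1, also called FIP200, had 7.05 on the stretched and 7.04 on the static array. ULK3 and ULK4 are related kinases that are not standing subunits of the complex. They differed by -0.13 and 0.53, with ULK4 under the bound on both arrays. The median of the group was 0.63 and went as low as 0.10 after centring on reference genes. After quantile normalization, removal of the level trend or that centring, 0 of the 7 genes were 1.5-fold higher, and after the last 1 was lower. Of all named genes, 12.8%, 14.3% and 6.84% were then higher, and 39.2% were lower after the last.

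Among the genes of membrane nucleation and lipid supply, ATG14 stood apart. ATG14 directs the class III lipid kinase to the site of autophagosome formation. It had 5.54 on the stretched and 3.80 on the static array, a difference of 1.74. It lay above the background bound on the stretched array only, so in the deposited values it was at least 2.42-fold higher under stretch. Its difference went as low as 1.21 after centring on reference genes, a smaller fold than this. Its promoter, shown above, holds a CLEAR core. The lipid transfer proteins ATG2A and ATG2B had 4.46 and 5.83 on the stretched array, against 4.05 and 6.14 on the static array. ATG9A, the membrane protein of the vesicles that seed the autophagosome, differed by 0.21. The median of these 4 genes was 0.31 and fell below 0 after quantile normalization and after centring on reference genes.

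The conjugation system held the largest difference of all 107 genes. ATG16L1, which brings the ATG12 and ATG5 conjugate to the membrane and so sets where ATG8 proteins are attached, had 7.13 on the stretched and 4.14 on the static array. The difference was 2.99, the 11th highest of the 14884 named genes, and ranged from 2.46 to 3.09 over the scalings. It has 1 probe set, and its static value lies just under the background bound. In the deposited values it was therefore at least 7.30-fold higher under stretch. The lowest difference over the scalings, 2.46, is a smaller fold than this. Its partners did not share this size. ATG12 had 4.89 under stretch and 4.23, just under the bound, under static culture (0.66). ATG5 had 6.24 on the stretched and 6.44 on the static array (-0.20). ATG7, the activating enzyme of the system, differed by 0.74, the conjugating enzymes ATG3 and ATG10 by -0.16 and -0.01, and ATG16L2, the relative of ATG16L1, by -0.35 under the bound on both arrays. Of the 7 genes 3 were at least 1.5-fold higher and 0 lower; the median was -0.01.

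ATG16L1 also spans 2 genes of small Cajal body RNAs, SCARNA5 and SCARNA6, in the RefSeq annotation. Both differed in the direction opposite to ATG16L1. SCARNA6 had 6.66 on the stretched and 9.14 on the static array, a difference of -2.48, the 6th lowest of the named genes. SCARNA5 had 8.03 on the stretched and 9.06 on the static array, a difference of -1.03. The 3 values come from separate probe sets, and their relation was not tested.

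The genes of the ATG8 proteins leaned the other way. Of the 7 measured, 0 were at least 1.5-fold higher and 3 were at least 1.5-fold lower, and the median was -0.22. It stayed below 0 under the 4 scalings, but this is no support for its direction. Median centring adds 0.10 and reference centring takes 0.53 from every gene, so neither could bring it above 0. Quantile normalization gave -0.38 and removal of the level trend -0.45, both further down. GABARAPL1 had 3.79 on the stretched and 5.15 on the static array, a difference of -1.36. Its stretched signal lay within the background range, so in the deposited values it was at least 1.85-fold lower under stretch. MAP1LC3B2 had 4.39 on the stretched and 5.92 on the static array, a difference of -1.53 (2.89-fold lower). MAP1LC3B2 is a near-identical copy of MAP1LC3B, so the 2 signals cannot be firmly separated, and MAP1LC3B itself had 3.73 on the stretched and 3.83 on the static array, within the background range. MAP1LC3C differed by -0.67 and MAP1LC3A by 0.10, both under the bound on both arrays. GABARAP, with 9.31 on the stretched and 9.53 on the static array, and GABARAPL2, with 6.93 on the stretched and 6.82 on the static array, differed by -0.22 and 0.11. The values past 1.5-fold in the deposited data thus belonged to 3 of the 7 genes.

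The cargo receptors SQSTM1 and OPTN were both higher. SQSTM1, also called p62, which links ubiquitin-tagged cargo to ATG8 proteins, had 7.34 on the stretched and 6.21 on the static array, a difference of 1.13 (2.19-fold). OPTN, a receptor for damaged mitochondria and intracellular bacteria, had 6.03 on the stretched and 5.10 on the static array (0.93). Their signals lay above the background bound on both arrays. SQSTM1 passed 1.5-fold under every scaling tried, with 0.60 as the lowest value, whereas OPTN went as low as 0.40. Of cargo receptors outside the symbol families, CALCOCO2 differed by -0.35, TAX1BP1 by 0.02 and TOLLIP by 0.05, and the mitochondrial receptors BNIP3, BNIP3L and FUNDC1 by -0.74, -0.16 and -0.11.

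Of the transcription factors of lysosome and autophagy genes, TFE3 had 6.98 on the stretched and 6.17 on the static array, a difference of 0.81 that went as low as 0.28 after centring on reference genes. TFEB had 2.75 on the stretched and 2.84 on the static array, within the background range on both, so no difference could be read for it. Of the lysosomal membrane proteins, CD68 had 8.58 on the stretched and 7.51 on the static array (1.07). CD68 is used as a macrophage marker, and the macrophage markers CD163 (1.64 on the stretched, 1.55 on the static array) and MARCO (2.42 on the stretched, 3.44 on the static array) lay within the background range. The leukocyte marker CD14 lay above it on both arrays, at 5.53 on the stretched and 5.13 on the static array. LAMP1 and LAMP2, the abundant glycoproteins of the lysosomal membrane, had 6.78 and 7.13 on the stretched array, against 6.40 and 7.21 on the static array. The median of these 5 genes was 0.38 and had the opposite sign after quantile normalization (-0.03) and after centring on reference genes (-0.15).

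**Figure D4:**
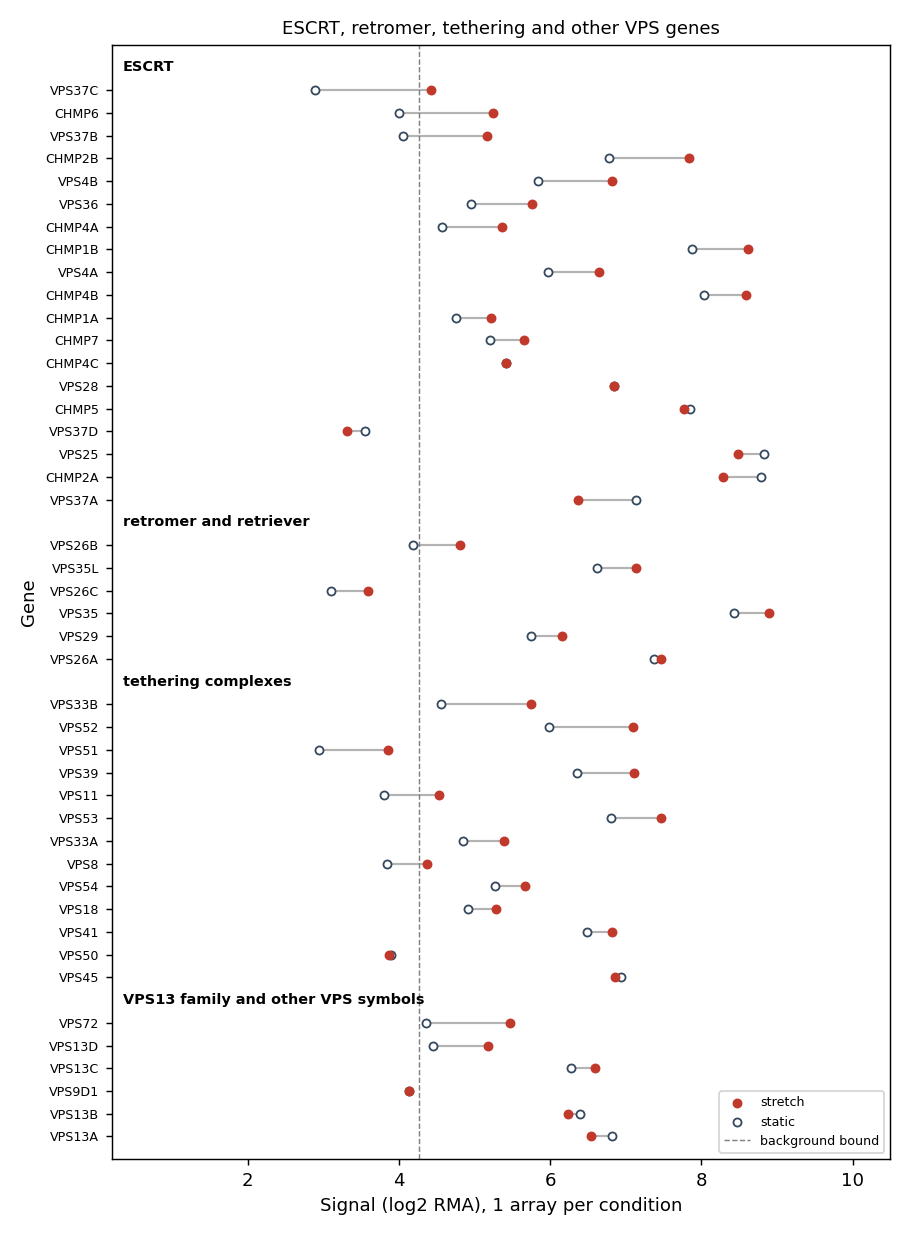
Log2 RMA signal (x axis) of the ESCRT, retromer and retriever, tethering and other VPS genes (rows, grouped by role) on the stretched array (filled) and the static array (open), joined by a line, with 1 array per condition and a dashed line at the background bound of 4.26. Of the 19 ESCRT genes 9 lie at least 1.5-fold to the right under stretch and 1, VPS37A, at least 1.5-fold to the left.

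The ESCRT genes differed among themselves. Of 19 measured, 9 (47.4%) were at least 1.5-fold higher, 4 of them 2-fold, against 20.7% of all named genes. In the other direction 1 (5.26%) was lower, against 8.02%. After quantile normalization 4 were higher and 2 lower, against 12.8% and 10.9% of all named genes. Without the level trend 5 were higher and 3 lower, against 14.3% and 9.43%. The median of 0.56 shrank to 0.03 after centring on reference genes, with 2 higher and 5 lower, against 6.84% and 39.2%. The forms of the ESCRT-I subunit VPS37, of which 1 enters each complex, were split. VPS37C had 4.42 on the stretched and 2.89 on the static array, a difference of 1.53, and VPS37B had 5.16 on the stretched and 4.06 on the static array (1.10). VPS37A, the form linked to closure of autophagosomes, had 6.37 on the stretched and 7.14 on the static array, a difference of -0.77. VPS37D had 3.32 on the stretched and 3.55 on the static array, within the background range. For VPS37B a second, dimmer probe set read 4.02 on the stretched and 4.23 on the static array, and the mean of both gave 0.45. The static values of VPS37C and VPS37B lay within the background range. In the deposited values they were thus at least 1.12-fold and 1.86-fold higher under stretch. VPS37A lay above that range on both arrays. VPS28, the partner shared by these forms, differed by -0.01.

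In ESCRT-II, VPS36, which binds ubiquitin and lipid, differed by 0.81 and VPS25 by -0.35. The ESCRT-III subunits are the CHMP proteins, whose filaments constrict membrane necks. CHMP6, which links ESCRT-II to the filament, had 5.25 on the stretched and 4.00 on the static array (1.25). Its static signal lay within the background range, so in the deposited values it was at least 1.98-fold higher. CHMP2B had 7.84 on the stretched and 6.78 on the static array (1.06), whereas its relative CHMP2A had 8.29 on the stretched and 8.79 on the static array (-0.50). CHMP4A and CHMP1B differed by 0.79 and 0.74, CHMP4B by 0.56, CHMP1A by 0.47, CHMP7 by 0.44, CHMP4C by 0.00 and CHMP5 by -0.08. Of the 10 CHMP genes, 4 were thus at least 1.5-fold higher and 0 lower. VPS4A and VPS4B, the ATPases that take the filament apart, were both higher. VPS4B had 6.82 on the stretched and 5.84 on the static array (0.98), and VPS4A had 6.64 on the stretched and 5.97 on the static array (0.67).

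The retromer and retriever genes lay close together. The 6 differences ran from 0.09 to 0.63, with a median of 0.48, and 5 of the 6 lay below 0 after centring on reference genes. VPS35, the retromer backbone, had 8.90 on the stretched and 8.43 on the static array, a difference of 0.47. VPS26B, one of the cargo-side arrestin-like subunits, differed by 0.63 and was the one gene of the group past 1.5-fold. Its static signal of 4.18 lay under the background bound, so it was at least 1.46-fold higher, short of that limit. The relative VPS26A differed by 0.09. VPS29, which both complexes share, differed by 0.40. The retriever subunits VPS35L and VPS26C differed by 0.52 and 0.49, VPS26C under the bound on both arrays.

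Of the 13 genes of tethering and fusion, 6 were at least 1.5-fold higher and 0 lower; the median of 0.54 shrank to 0.01 after centring on reference genes. VPS33B, a fusion regulator that acts apart from the HOPS complex, had 5.74 on the stretched and 4.55 on the static array, a difference of 1.19. VPS52, of the GARP complex that tethers vesicles returning from endosomes to the Golgi, had 7.09 on the stretched and 5.98 on the static array (1.11), and its second probe set gave 6.58 on the stretched and 5.50 on the static array (1.08). The other GARP genes VPS51, VPS53 and VPS54 differed by 0.91, 0.66 and 0.40, with VPS51 under the bound on both arrays. VPS50, which takes the place of VPS54 in the endosomal form of the complex, differed by -0.03 within the background range. The HOPS and CORVET genes, which tether late and early endosomes, differed by 0.76 (VPS39), 0.73 (VPS11), 0.54 (VPS33A), 0.53 (VPS8), 0.38 (VPS18) and 0.33 (VPS41). VPS45, a regulator of endosomal SNARE proteins, differed by -0.08.

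The VPS13 proteins are large lipid channels at membrane contacts. VPS13D had 5.18 on the stretched and 4.45 on the static array (0.73), while VPS13C, VPS13B and VPS13A differed by 0.32, -0.15 and -0.28. VPS72 carries the family symbol but encodes a nuclear chaperone of the histone variant H2A.Z. It had 5.47 on the stretched and 4.36 on the static array, a difference of 1.11. VPS9D1 had 4.14 on both arrays, while the antisense RNA within its span, VPS9D1-AS1, had 4.79 on the stretched and 3.45 on the static array (1.34). Whether the probes of these 2 genes separate the strands was not stated in the sources used here, so their signals are uncertain.

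Sorting nexins were the largest group, with 26 measured. Of these, 8 (30.8%) were at least 1.5-fold higher, against 20.7% of all named genes, and 2 (7.69%) lower, against 8.02%. Among all named genes the share higher was 9.69% at or below the bound, 39.7% from the bound to 6 and 33.5% above 6. The median of 0.26 moved to -0.01 after quantile normalization and to -0.27 after centring on reference genes. The largest difference was that of SNX11, an endosomal nexin, with 6.00 on the stretched and 4.31 on the static array (1.69). SNX19, which carries PXA and nexin C domains, had 5.80 on the stretched and 4.25 on the static array (1.55). SNX13, of the same domain type, differed by -0.26. SNX7 had 5.28 on the stretched and 4.23 on the static array (1.05) and SNX30 differed by 0.73. SNX4, with which both pair in recycling and autophagy, had 6.76 on the stretched and 6.81 on the static array. The static signals of SNX19, SNX7 and SNX30 lay within the background range, and SNX30 was at least 1.16-fold higher.

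The nexins that bend membranes with retromer were divided. SNX1 had 5.34 on the stretched and 4.32 on the static array, a difference of 1.02, while its relative SNX2 had 7.99 on the stretched and 8.41 on the static array (-0.42). SNX5 and SNX6, the forms that pair with these, differed by 0.48 and 0.22. SNX32, the third of that kind, had 1.85 on the stretched and 2.94 on the static array (-1.09), within the background range. SNX12 and its relative SNX3, a retromer cargo adaptor, differed by 0.92 and -0.35. SNX17, which recycles integrins through retriever, had 7.01 on the stretched and 6.33 on the static array (0.68), and SNX27, which recycles receptors through retromer, had 7.16 on the stretched and 7.26 on the static array (-0.10). Of the endocytic nexins with an SH3 domain, SNX33 differed by 0.69, SNX9 by 0.57 and SNX18 by 0.05. SNX33 had a static signal under the bound and was at least 1.32-fold higher, and SNX18 lay under it on both arrays. The second lower nexin was SNX22 (-0.62), under the bound on both arrays. The remaining nexins, SNX8, SNX16, SNX20, SNX21, SNX24, SNX29 and SNX31, differed by values from -0.21 (SNX31) to 0.51 (SNX8).

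**Figure D5:**
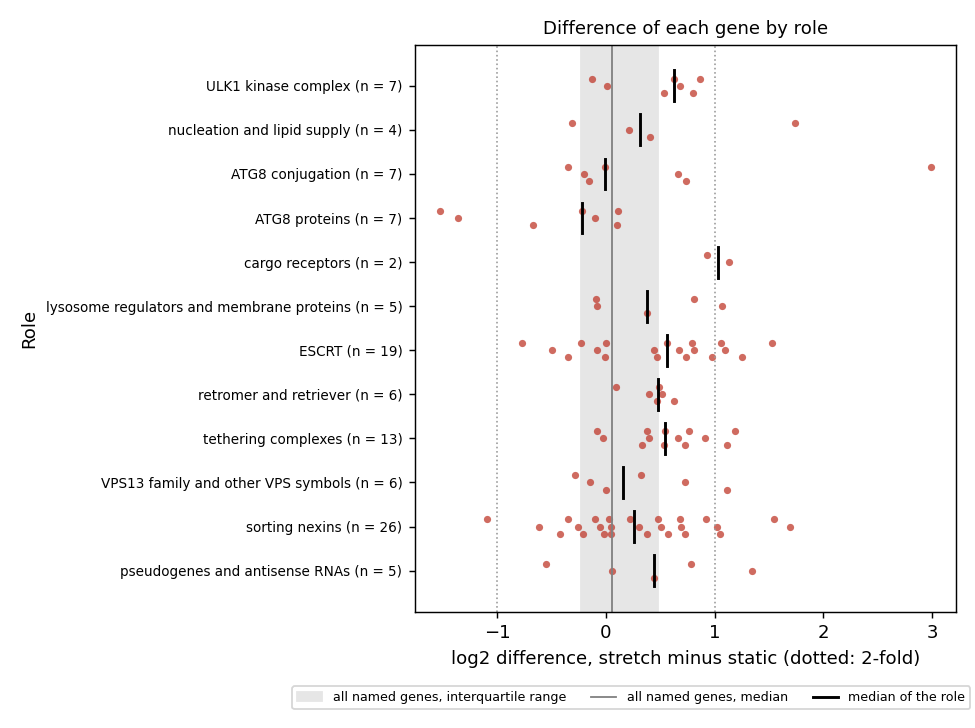
Log2 difference, stretch minus static (x axis), of each of the 107 genes (points) by role (rows), with the median of each role (black bar), the median and interquartile range of all 14884 named genes (grey line and band, 0.06 and -0.23 to 0.48) and dotted lines at 2-fold. The median of the cargo receptors is highest at 1.03 and that of the ATG8 proteins lowest at -0.22, the order of roles between these being open to the scaling.

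The 5 antisense RNAs and pseudogenes had a median of 0.44. Besides VPS9D1-AS1, ULK4P3 differed by 0.78 from a static signal under the bound, SNX29P1 by 0.44, VPS13A-AS1 by 0.06 and SNX29P2 by -0.55. The pseudogenes resemble their parent genes, so their signals are uncertain. The 4 members with 2 probe sets each were ATG101, VPS37B, VPS51 and VPS52. Both probe sets gave the same sign for ATG101 (0.63 and 0.11) and VPS52 but not for VPS37B or VPS51 (0.91 and -0.27).

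Genes of the same pathways that the symbols above do not cover were listed as well. Of 136 listed, 83 have a named probe set, and 29 of them (34.9%) were at least 1.5-fold higher, 10 of these 2-fold, and 5 (6.02%) at least 1.5-fold lower, 0 of them 2-fold, against 20.7% and 8.02% of all named genes. Their median was 0.32, and the other scalings were not applied to this list. HGS, the ESCRT-0 subunit that gathers ubiquitin-tagged receptors, had 6.45 on the stretched and 4.69 on the static array (1.76). TMEM41B, a lipid scramblase of early autophagosomes, had 6.08 on the stretched and 4.41 on the static array (1.67). SESN2 and CASTOR1, amino acid sensors that restrain the growth kinase mTORC1, differed by 2.17 and 1.47, SESN2 from a static signal under the background bound. The relatives SESN1 and SESN3 were lower (-0.60 and -0.59), SESN1 with a stretched signal within the background range and SESN3 with both signals there. The other lower genes were VAMP8 (-0.96), a SNARE protein of autophagosome fusion, BNIP3 (-0.74) and DEPP1 (-0.60), the last under the bound on both arrays. FLCN and FNIP1, which together control how mTORC1 holds TFEB and TFE3, differed by 1.03 and 1.13, FLCN from a static signal under the background bound. IGF2R, the receptor that carries hydrolases to the lysosome, had 7.09 on the stretched and 5.83 on the static array (1.26). ZKSCAN3, a zinc finger repressor of autophagy genes, differed by 1.08 under the bound on both arrays. FOXO3, a transcription factor of autophagy genes, differed by 1.02 within the background range. RUBCN, which restrains autophagosome maturation, had 4.95 on the stretched array and 3.95, within the background range, on the static array. MTOR itself differed by 0.65 and CTSD, the lysosomal protease cathepsin D, by 0.41. In this list the lower genes, FOXO3, RUBCN, MTOR and CTSD, like the other receptors given with SQSTM1, were chosen after their values were seen.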

How the data were processed

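Total RNA of 2 A549 cultures, 1 stretched and 1 static, was hybridised to Affymetrix arrays. The deposited values are log2 signals that the authors made with RMA, per the submitters' processing notes (software version and chip definition: not given in the sources used here). Stretched and static columns do not share a distribution (sorted values differ by up to 0.45, medians 2.47 and 2.57), so how the arrays were scaled to each other is unknown. Array number limits the precision.

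Probe sets were named through the platform annotation: 16098 have 1 symbol, 0 several, and 37519 are unnamed here. All 107 member symbols matched RefSeq. A gene with several probe sets was represented by its brightest one, by the mean over both arrays. No level filter was set, and 105 of 107 members passed one at the median signal, 2.52. Genes were counted at 1.5-fold and 2-fold, with no test. Named genes are every member past 2-fold, the extremes of each role and 16 fixed symbols; other members are given as values. The members and lists were chosen with earlier results of these data known. Scaling code was tested on simulated data. Python 3.11.15, numpy 2.4.6, pandas 2.3.3 and statsmodels 0.14.6 (loess span 0.3) were used.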

Additional observations from a re-analysis of the deposited data

How the results depend on the processing

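The counts of genes past 1.5-fold depend on how the arrays are scaled, and 2 arrays without detection calls do not settle which scaling is right. Against 40 higher and 6 lower with a median of 0.41 in the deposited values, there were 17 higher and 13 lower with a median of 0.115 after quantile normalization (all named genes 12.8% and 10.9%, median 0.00), 18 and 12 with 0.163 after removal of the level trend (14.3% and 9.43%, 0.04), and 9 and 28 with -0.12 after centring on reference genes (6.84% and 39.2%, -0.47), which moves every gene alike. At 2-fold the counts were 16 and 3. Level filters at the upper quartile and at the background bound each left 85 genes, 39 (45.9%) higher, against 38.9% of all genes past the first filter, and 3 lower. At the bound 18 of the 85 pass through the stretched array alone, so their difference itself decides that they are kept. Centring on medians, the filter at the median signal, averaging probe sets and leaving out antisense RNAs and pseudogenes kept each count and the median within 1.5 times. Of the 40 genes higher by 1.5-fold, those still past it numbered 40 after median centring, 17 after quantile normalization, 18 without the level trend, 9 after reference centring and 37 with probe sets averaged. Of the 6 lower genes, 4, 5, 4, 6 and 6 remained under these settings. Averaging probe sets moved VPS37B to 0.45. The causes were not tested beyond the construction of each scaling. No paired analysis was possible because each group has 1 array and no test was made.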

Other observations

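In the RefSeq annotation, 20 of the 107 genes are overlapped by another gene that has a named probe set, so part of a signal may be shared where probes do not separate the strands, which was not tested. Some neighbours differed more than the autophagy or endosome gene itself, and the following pairs were chosen after their values were seen. COG8, a Golgi tethering subunit that overlaps VPS4A, had 6.68 on the stretched and 4.83 on the static array (1.85), against 0.67 for VPS4A. OTUD7B, a deubiquitinase that overlaps VPS45, had 5.05 on the stretched and 3.52 on the static array (1.53), against -0.08 for VPS45. PHF23, which overlaps GABARAP, had 5.56 on the stretched and 4.22 on the static array (1.34), against -0.22 for GABARAP.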
